A study of Mus musculus with 4 samples.

Results

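The Fanconi anaemia pathway is represented here by 10 mouse genes, Fanca, Fancb, Fancc, Fancd2, Fance, Fancf, Fancg, Fanci, Fancl and Fancm, taken from the 54232 genes of the deposited count table by their symbols. All 10 had a row and enough reads to be tested. RNA was sequenced from whole testes of B6D2F1 mice at postnatal day 17, in 2 control libraries (genotype Dis3 WT) and 2 libraries of a Dis3 conditional knockout (genotype Dis3 KO, called KO below). DIS3 is a catalytic subunit of the RNA exosome, the complex that trims and degrades RNA. The sources used here do not name the Cre driver, the alleles of the controls, or whether each library is a separate animal. The p-values then measure only how these libraries vary, which may be technical variation. The whole testis holds somatic cells beside germ cells, and fewer cells of a type cannot be told apart from less RNA per cell.

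The pathway repairs DNA crosslinks that block replication forks. FANCM, which binds the stalled fork, anchors a core complex built from 3 modules: FANCA with FANCG and FAAP20, FANCC with FANCE and FANCF, and FANCB with FANCL and FAAP100. FANCL is the ubiquitin ligase, and its product is the monoubiquitinated clamp of FANCD2 and FANCI, from which nucleases, translesion polymerases and recombination proteins act. In the germ line the pathway is known for the loss of germ cells and low fertility of mice that lack its members, and FANCD2 is known to gather on meiotic chromosomes.

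The 2 WT libraries held 31031920 and 40329170 reads in genes, and the KO libraries 17663416 and 19255782. Pairs of values below are replicates 1 and 2 in that order. Levels are CPM, read counts scaled to a fixed library total after TMM scaling, or RPKM, the same per kilobase of exon, where genes are compared with each other. Dis3 itself was lower in KO, at 39.4 and 42.8 CPM beside 80.0 and 80.4 CPM in WT. Its log2 fold change was -0.96 ± 0.07 (SE, edgeR quasi-likelihood test, adjusted p = 2.34e-09), in the direction of the genotype labels. All 21 pachytene spermatocyte markers were lower in KO, with summed levels of 8042 and 8394 CPM in WT and 5161 and 4658 CPM in KO. Of 31 early meiotic prophase genes 27 were lower (summed 5607 and 5792 CPM in WT, 4134 and 4077 CPM in KO). All 10 macrophage markers were higher (194 and 194 CPM in WT, 316 and 309 CPM in KO), as were 10 of 25 Sertoli cell markers (9839 and 9704 CPM in WT, 10620 and 10405 CPM in KO). No marker of these 4 lists was at 0 in any library. Of 5 blood cell genes 3 were tested and all 3 were lower (summed 10.7 and 13.5 CPM in WT, 5.31 and 4.65 CPM in KO). Other somatic lists changed less evenly. Leydig cell markers had 3 of 9 higher and 2 lower, peritubular myoid markers 3 of 8 higher and 1 lower, and endothelial markers 2 of 8 higher and 0 lower. Over all tested genes 11.6% were higher and 20.3% lower. The part of these marker shifts in the changes of the Fanconi genes was not tested. The comparisons with meiotic genes given below set libraries equal on chosen lists, so they cannot decide it.

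Of the 10 Fanconi genes 5 were lower in KO, 0 were higher and 5 did not pass the test. Fanca fell to 53.1% of its WT level, Fanci to 63.0%, Fancg to 63.5%, Fancl to 75.3% and Fancd2 to 80.4%. Fancb, Fancm, Fance, Fancf and Fancc did not pass. Over all 25076 tested genes 20.3% were lower and 11.6% higher, and 30.3% were lower among the 16772 genes that reached 5 times background. With libraries scaled to Sertoli cell genes, which lowered all fold changes by 0.15 (log2), 8 Fanconi genes were lower, and over all genes the numbers higher and lower went from 2906 and 5092 to 1632 and 7636. No Fanconi gene was higher at an unadjusted p of 0.05 or with DESeq2. In 8 of the 10, both KO libraries lay below both WT libraries in CPM, as did 32.7% of all tested genes. The median log2 fold change of the 10 was -0.36, against 0.05 over all tested genes and -0.12 over those at 5 times background.

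**Figure D1:**
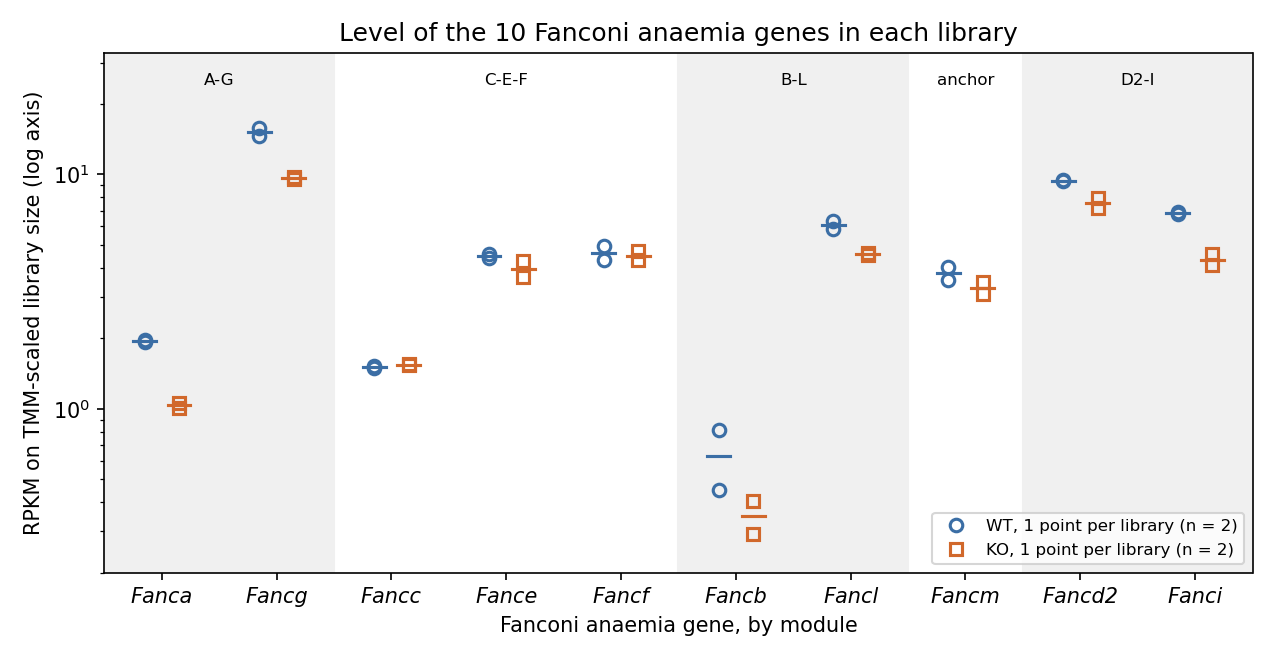
RPKM (log axis) of each Fanconi gene in each library, with WT as blue circles, KO as orange squares and the mean of 2 libraries as a bar; shading separates the modules of the complex. Fancg is the highest in both genotypes and Fancb the lowest. The KO points lie below the WT points in 8 genes, all but Fancc and Fancf, as in 32.7% of all tested genes. Of these 8, Fancb, Fance and Fancm did not pass the test.

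Levels per length spanned a wide range. In WT the order was Fancg (15.2 ± 0.805 RPKM, SD, n = 2), Fancd2 (9.41 ± 0.0586), Fanci (6.87 ± 0.100), Fancl (6.09 ± 0.305), Fancf (4.63 ± 0.442), Fance (4.50 ± 0.111), Fancm (3.78 ± 0.328), Fanca (1.95 ± 0.0329), Fancc (1.51 ± 0.0244) and Fancb (0.632 ± 0.258). Fancf and Fance overlapped between libraries, and the other neighbours in this order did not. Fancg lay above 82.6% of all tested genes per length in WT, Fanca above 50.7% and Fancb above 36.7%. In KO the order changed at a pair of places. Fanca (1.04 ± 0.0354 RPKM) dropped below Fancc (1.54 ± 0.0189). Fanci (4.33 ± 0.330) went from above Fancl (4.58 ± 0.0609), Fancf (4.51 ± 0.303) and Fance (3.95 ± 0.435) to a level that overlapped each of them. The ratio of Fanca to Fancc in RPKM was 1.26 and 1.32 in WT, and it was 0.693 and 0.649 in KO.

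Fanca had the lowest and Fancc the highest fold change of the 10, and they swapped order in level. The 250 bases before the RefSeq start of each gene (GRCm38.p6, minus strand for both, 5′ to 3′) are shown to set their promoters side by side, for Fanca at chr8:123318577-123318826 and for Fancc at chr13:63431746-63431995. Capitals mark CCAAT, or ATTGG where it lies on the other strand.
Fanca: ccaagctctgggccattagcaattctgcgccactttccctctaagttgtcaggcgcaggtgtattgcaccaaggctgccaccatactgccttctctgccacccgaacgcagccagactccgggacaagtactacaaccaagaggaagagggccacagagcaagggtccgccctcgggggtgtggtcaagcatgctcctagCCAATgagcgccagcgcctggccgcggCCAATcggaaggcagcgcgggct
Fancc: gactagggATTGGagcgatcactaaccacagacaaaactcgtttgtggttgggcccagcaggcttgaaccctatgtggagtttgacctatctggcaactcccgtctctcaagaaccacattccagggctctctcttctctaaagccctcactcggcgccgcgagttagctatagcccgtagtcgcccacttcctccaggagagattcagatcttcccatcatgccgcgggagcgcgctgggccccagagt
Fanca holds the CCAAT letters at positions -50 and -23 from its start, and Fancc on the other strand at -242. The Fanca window ends where the counted gene begins. The counted GENCODE span of Fancc begins far upstream of its RefSeq start, at position 63497278 of chromosome 13. The Fancc window thus lies deep inside the counted gene.

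A RefSeq promoter was given for 9 of the 10 genes. CCAAT was found in 6 of these 9 (Fanca, Fancb, Fancc, Fance, Fancf and Fancm), against 33.8% of all 32817 promoters of this length. The letters TTNNCGC, a form of the E2F site of replication genes, occurred in 4 (Fancb, Fancf, Fancg and Fancm), against 17% of all, and the GC box GGGCGG in 5 (Fanca, Fancb, Fance, Fanci and Fancm), against 32.7%. Fanci and Fancm held the NRF1 half-site GCATGCG (3.01% of all promoters) and Fance the ETS letters CCGGAAG (6.9%). None of the 9 held TGACGT (6.46%), CACGTG (6.02%), the MYB letters GGCAGTT (3.33%) or the CHR element TTTGAA (16%). Both strands were searched for these 9 motifs, and different motifs overlapped once in these promoters. The windows of all these genes but Fanca and Fancc overlapped an annotated exon on either strand. The RefSeq starts of Fancg, Fanci and Fancl lay inside the counted gene, by 205, 409 and 949 bases. That of Fancc lay far deeper inside its counted gene, as the positions above show. Of the CCAAT holders Fanca fell, and Fancb, Fancc, Fance, Fancf and Fancm did not pass. Fancg, Fanci and Fancl fell and held no CCAAT. Of the TTNNCGC holders Fancg fell, and Fancb, Fancf and Fancm did not pass. A link between letters and change was not tested. These matches describe the letters only, and the shares over all promoters were not matched for base content. Median GC content over all promoters was 52.4%, beside 44.4% for Fancl and 54.4% (Fanci) to 62.4% (Fance) for the others.

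Within the FANCA and FANCG module, both Fanconi genes fell. Fanca (ENSMUSG00000032815, GRCm38 chromosome 8, 123268300 to 123318576, minus strand, protein coding, 44 exon blocks) measured 16.9 and 17.3 CPM in WT and 9.30 and 8.86 CPM in KO. The KO libraries were close together and well below both WT libraries, giving a log2 fold change of -0.91 ± 0.12 (edgeR adjusted p = 4.46e-06), the lowest of the 10. FANCA is the largest subunit of this module and the one most often mutated in Fanconi anaemia. Fancg (ENSMUSG00000028453, chromosome 4, 43002343 to 43010506), whose protein joins FANCA to the complex, measured 55.6 and 59.9 CPM in WT and 36.4 and 37.1 CPM in KO (-0.65 ± 0.08, edgeR adjusted p = 8.07e-07). Their partner gene Faap20 measured 27.9 ± 0.098 CPM in WT and 25.7 ± 0.910 CPM in KO (SD, n = 2) and did not pass (edgeR adjusted p = 0.341).

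The FANCC, FANCE and FANCF module bridges the core complex to FANCD2, which FANCE binds directly. None of its 3 genes passed the test. Fancc (ENSMUSG00000021461, chromosome 13, 63285043 to 63497278) measured 12.8 and 12.5 CPM in WT and 12.8 and 13.0 CPM in KO. Its log2 fold change was 0.04 with a 95% interval of -0.22 to 0.29 (unadjusted), and its sign turned under 4 of the 11 alternative settings, all without a call. Fancf (ENSMUSG00000092118, chromosome 7, 51860577 to 51862267), a gene of 1 exon, measured 8.37 and 7.31 CPM in WT and 7.99 and 7.26 CPM in KO, so the groups overlapped. Its interval was -0.36 to 0.28 around a log2 fold change of -0.04, whose sign turned with a stricter filter (0.030) and without WT replicate 1 (0.020). Fance (ENSMUSG00000007570, chromosome 17, 28313530 to 28326568) measured 14.1 and 14.6 CPM in WT and 11.6 and 13.6 CPM in KO (-0.18, interval -0.44 to 0.07, edgeR adjusted p = 0.256). It was -0.10 without KO replicate 1 and -0.36 without KO replicate 2 (edgeR adjusted p = 0.674 and 0.0904). For Fancc and Fancf these intervals leave out the fold changes of Fanca, Fancg, Fanci and Fancl. Both overlap the interval of Fancl (-0.63 to -0.19), and differences between genes were not tested.

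In the FANCB and FANCL module, Fancl (ENSMUSG00000004018, chromosome 11, 26386135 to 26471876), the gene of the ubiquitin ligase, measured 21.3 and 19.8 CPM in WT and 15.6 and 15.3 CPM in KO. It fell by 0.41 ± 0.11 on the log2 scale (edgeR adjusted p = 0.00517). Faap100, the gene of their partner protein, also fell (-0.29 ± 0.10, edgeR adjusted p = 0.0267). Fancb (ENSMUSG00000047757, chromosome X, 164980592 to 164997272) is the only X-linked gene of the 10 and had the fewest reads, 72 and 51 in WT and 22 and 18 in KO. Relative to their mean, its WT libraries differed more than those of any other Fanconi gene, at 2.43 and 1.34 CPM, against 1.20 and 0.872 CPM in KO. Its log2 fold change of -0.85 ± 0.37 did not pass (edgeR adjusted p = 0.0850), and its size rested on the WT libraries, being -0.42 without WT replicate 1 and -1.25 without WT replicate 2 (edgeR adjusted p = 0.487 and 0.0102).

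Fancm (ENSMUSG00000055884, chromosome 12, 65075603 to 65132058) encodes the fork-binding translocase that anchors the complex. It measured 37.1 and 41.9 CPM in WT and 32.1 and 36.4 CPM in KO, where the higher KO library came close to the lower WT library. The log2 fold change of -0.21 ± 0.09 did not pass (edgeR adjusted p = 0.0798), although it passed under 6 of 11 alternative settings. Its size moved with single libraries, being -0.33 without WT replicate 1 and -0.35 without KO replicate 2 (edgeR adjusted p = 0.0131 and 0.00577), but -0.13 without WT replicate 2 and -0.14 without KO replicate 1 (0.456 and 0.346). The genes of its partners fell. Cenpx and Cenps, which encode the histone-fold pair bound by FANCM, had log2 fold changes of -0.59 ± 0.08 and -0.59 ± 0.12, and Faap24, which forms a heterodimer with FANCM, one of -0.37 ± 0.11 (edgeR adjusted p = 8.22e-06, 0.000714 and 0.0129).

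Both genes of the clamp fell. Fanci (ENSMUSG00000039187, chromosome 7, 79391929 to 79450264) measured 40.1 and 39.3 CPM in WT and 26.4 and 23.7 CPM in KO (-0.67 ± 0.09, edgeR adjusted p = 3.74e-06). Fancd2 (ENSMUSG00000034023, chromosome 6, 113531682 to 113597017) had the most reads of the 10, with 9.45 and 9.36 RPKM in WT and 7.97 and 7.16 RPKM in KO (-0.32 ± 0.07, edgeR adjusted p = 0.00155). The 95% intervals of these fold changes, -0.85 to -0.48 for Fanci and -0.46 to -0.17 for Fancd2, did not overlap, though the difference between the pair was not tested.

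**Figure D2:**
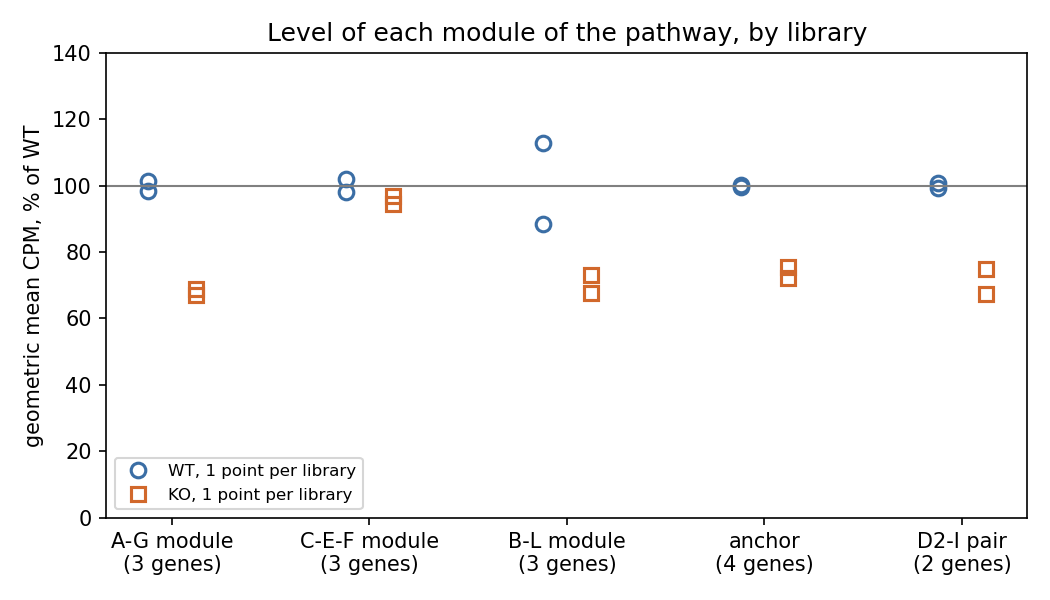
Geometric mean CPM of the genes of each module, FAAP and CENP partners included (the anchor is FANCM with FAAP24, CENPS and CENPX), as a percentage of the WT mean, with 1 point per library. The KO libraries lie between 67.0% and 75.4% of WT in every module but that of FANCC, FANCE and FANCF, where they are at 94.4% and 96.9%.

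Averaged over the genes of a module, with partners, the KO level was 67.8% of WT for FANCA and FANCG, 70.3% for FANCB and FANCL, 73.7% for FANCM and its partners and 71.1% for FANCD2 and FANCI. The module of FANCC, FANCE and FANCF was at 95.6%, with KO libraries at 94.4% and 96.9% beside WT libraries at 102% and 98.0%. The WT libraries of the FANCB and FANCL module lay further apart, at 113% and 88.6%. Its average includes Fancb, which had few reads and did not pass, at 55.5%, beside Fancl at 75.3%. Fancm alone was at 86.7% and did not pass, close to Fance at 88.0%, so the average of its module rests on its partners. This grouping by module was made after the values were seen and carries no test.

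Several Fanconi genes lie head to head with a neighbour or overlap one on the other strand, which the strand-specific counting keeps apart. Emc3, an endoplasmic reticulum membrane protein gene, starts 30 bases from Fancd2 on the opposite strand and also fell (-0.25 ± 0.07, edgeR adjusted p = 0.00879). Mospd2, 217 bases from the start of Fancb, had a log2 fold change of 0.25 ± 0.10 (edgeR adjusted p = 0.0682), opposite in sign to Fancb. Gas2, whose annotated start lies 252 bases from that of Fancf, had one of -0.24 ± 0.12 (edgeR adjusted p = 0.148). Polg, the gene of the mitochondrial DNA polymerase, overlaps the 3′ part of Fanci by 4034 bases on the opposite strand and fell by 0.36 ± 0.07 (edgeR adjusted p = 0.00025). Zfp276, which overlaps the end of Fanca by 1446 bases, had a log2 fold change of 0.04 ± 0.13 (edgeR adjusted p = 0.853) while Fanca fell.

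The next comparison asked whether the Fanconi genes changed by more or less than the mean of 31 early meiotic genes. Libraries were set equal on that mean, which raised all fold changes by 0.45. The test takes the mean as fixed and leaves out the spread of its genes, from -0.88 to -0.099 on the TMM scale. There Fanca lay below that range, Fancc and Fancf above it, and the other Fanconi genes, with Fanci, Fancg and Fancm, within it. On the early meiotic scale 3 Fanconi genes were lower, Fanca (-0.46 ± 0.12), Fanci (-0.21 ± 0.09) and Fancg (-0.20 ± 0.08), with edgeR adjusted p = 0.00442, 0.0486 and 0.0312. Over all tested genes 3.01% were lower on this scale and 52.5% higher. Fancc (0.49 ± 0.12), Fancf (0.41 ± 0.16) and Fancm (0.25 ± 0.09) were higher, with edgeR adjusted p = 0.00259, 0.0321 and 0.0221. Fancl (0.04 ± 0.11), Fancd2 (0.14 ± 0.07), Fance (0.27 ± 0.12) and Fancb (-0.40 ± 0.39) did not pass. The calls of Fanca and Fancc held without any 1 library, with adjusted p of at most 0.0278 and 0.0231. That of Fancg was lost without each library (adjusted p = 0.0534 to 0.175), and that of Fanci without WT replicate 1 (0.209), WT replicate 2 (0.0706) or KO replicate 2 (0.304). Those of Fancf without WT replicate 2 (0.237) or KO replicate 1 (0.153), and of Fancm without WT replicate 1 (0.131) or KO replicate 2 (0.256), were also lost. Setting libraries equal on the pachytene markers (median -0.86) raised all fold changes by 0.86. On that scale 0 Fanconi genes were lower and 7 were higher, beside 0.311% and 82.3% of all tested genes. The log2 fold change of Fanca was then -0.05.

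**Figure D3:**
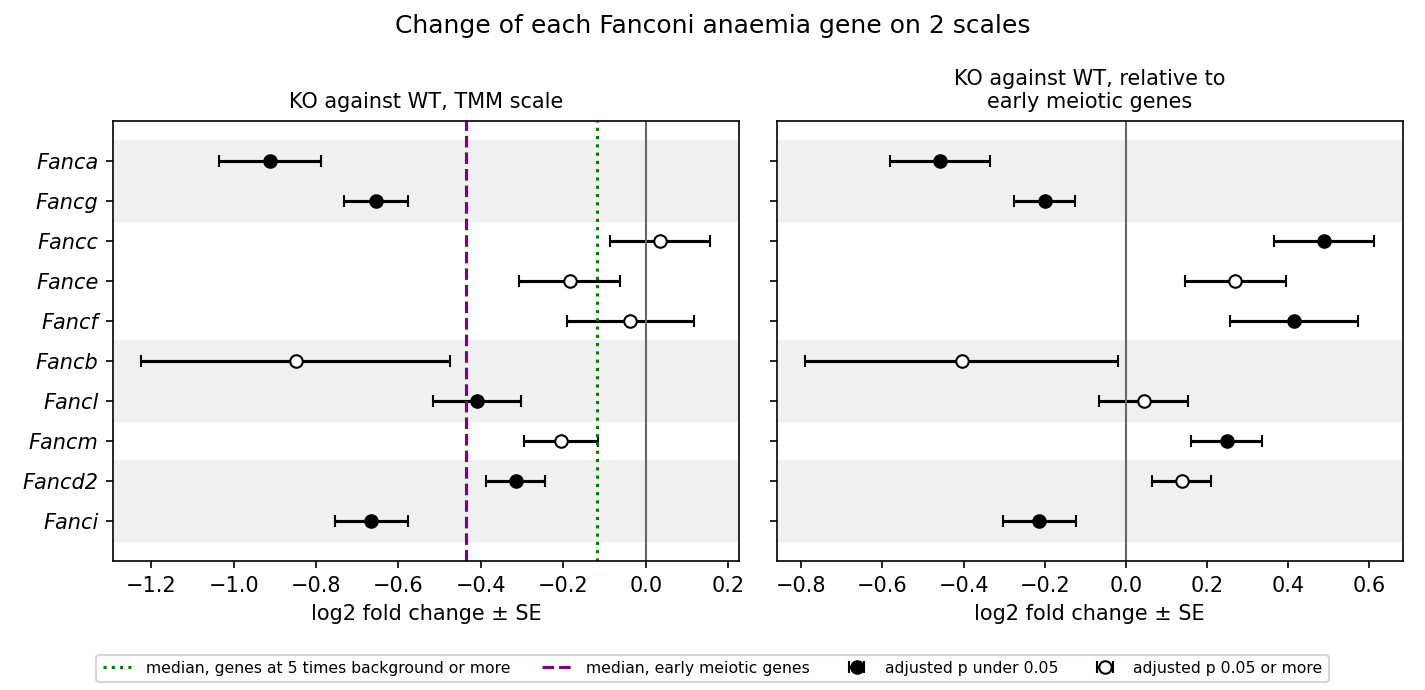
Log2 fold change (KO against WT) ± SE of each Fanconi gene on the TMM scale (left) and relative to early meiotic genes (right), with filled points for an adjusted p under 0.05. On the left 5 genes are lower, and on the right Fanca, Fancg and Fanci are lower and Fancc, Fancf and Fancm higher.

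Beyond the 10 genes, the pathway was described by 47 further genes in 6 lists, all of which were tested. Of these, 33 were lower, 0 were higher and 14 did not pass (median log2 fold change -0.36), where 20.3% of all tested genes and 30.3% of those at 5 times background were lower. None was higher at an unadjusted p of 0.05 or with DESeq2, by which 29 were lower. In the ubiquitin cycle 4 of 7 fell. They were Ube2t (-0.33 ± 0.07), the conjugating enzyme that works with FANCL, Usp1 (-0.50 ± 0.06) and Wdr48 (-0.44 ± 0.06), which together remove ubiquitin from FANCD2, and Uhrf1 (-0.42 ± 0.07), which recognises crosslinked DNA. Usp1 measured 201 and 199 CPM in WT and 146 and 137 CPM in KO. RNA of the writer genes Fancl and Ube2t and of the eraser genes Usp1 and Wdr48 was thus lower, with groups that did not overlap. Both KO libraries lay below both WT libraries in 32.7% of all tested genes. The proteins and the FANCD2 mark were not measured in these data.

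Of 9 nuclease genes 3 fell (median -0.19), a share near the 30.3% of genes at 5 times background. Slx4, the scaffold of the unhooking nucleases, measured 160 and 159 CPM in WT and 132 and 111 CPM in KO (-0.39 ± 0.07, edgeR adjusted p = 0.000187). Ercc4, the nuclease XPF, fell by 0.32 ± 0.09 and Dclre1a by 0.28 ± 0.10. Of 6 translesion synthesis genes 4 fell. Mad2l2, which encodes a subunit of polymerase zeta and was the gene with the largest fall in these lists, measured 96.8 and 112 CPM in WT and 62.7 and 57.1 CPM in KO (-0.81 ± 0.08, edgeR adjusted p = 5.62e-08). The polymerase genes Rev1 (-0.37 ± 0.06), Poln (-0.47 ± 0.10) and Polh (-0.41 ± 0.11) fell too.

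Of 13 homologous recombination genes 11 fell (median -0.41). Brca2, a recombination mediator also known as the Fanconi gene FANCD1, measured 197 and 214 CPM in WT and 164 and 147 CPM in KO (-0.41 ± 0.06). Bard1 (-0.52 ± 0.08), the partner of BRCA1, and Xrcc2 (-0.57 ± 0.09), which acts in strand exchange, fell as well. All 7 genes of the dissolution list fell (median -0.48), among them the helicase gene Blm (-0.48 ± 0.07), Top3a (-0.33 ± 0.07) and the single-strand binding genes Rpa1 (-0.57 ± 0.07) and Rpa2 (-0.45 ± 0.10). Meiosis uses many of these recombination genes too, so they are not markers of crosslink repair alone.

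Replication genes, which dividing cells express with the Fanconi genes, gave 14 lower and 0 higher of 20 (median -0.28), beside 30.3% lower among genes at 5 times background. None was higher at an unadjusted p of 0.05 or with DESeq2. Pcna fell by 0.50 ± 0.07, Mcm7 by 0.42 ± 0.06, Prim1 by 0.54 ± 0.09 and Rfc4 by 0.46 ± 0.08 on the log2 scale. Of the cell type lists, markers of differentiating spermatogonia had 6 of 11 lower and 1 higher (median -0.30), and undifferentiated spermatogonia 3 of 12 lower and 1 higher (median -0.14), the latter between the 20.3% of all tested genes and the 30.3% of those at 5 times background. The median of the 10 Fanconi genes lay between those of differentiating spermatogonia and early meiotic genes (-0.44), a description of medians with no test.

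**Figure D4:**
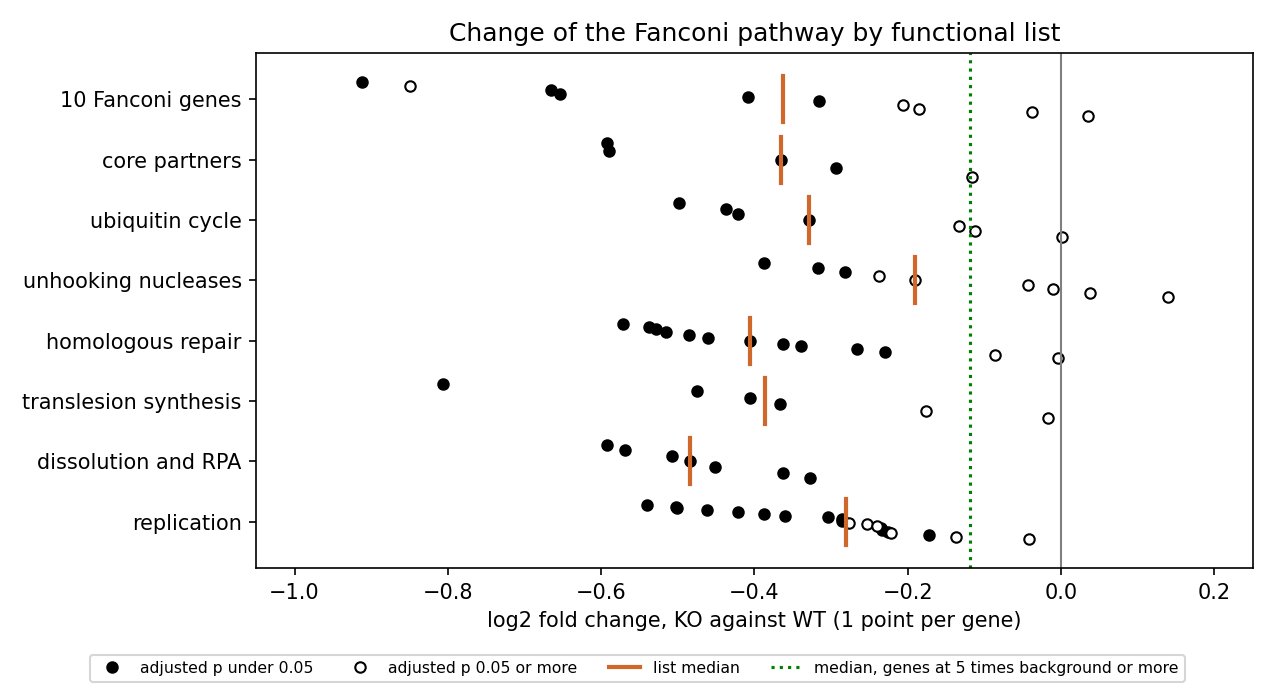
Log2 fold change (KO against WT) of every gene of the Fanconi lists and of the replication list, 1 point per gene, filled where the adjusted p was under 0.05, with list medians as orange bars. The dissolution list has all 7 genes filled, and the nuclease list has 6 of 9 open.

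Reads were also counted upstream of genes, over 3000 bases on each strand, where the exosome is known to remove short-lived promoter transcripts. These tables held a region for 5 of the Fanconi genes, Fancc, Fance, Fancg, Fanci and Fancl. The Fancc region (chromosome 13, 63497279 to 63500278) adjoins the start of the counted gene and lies far from the promoter printed above. None of the 5 regions overlapped an annotated gene. On the opposite strand 4 were tested, and that of Fanci (chromosome 7, 79388929 to 79391928) was higher in KO, with 7 and 5 reads in WT and 19 and 27 reads in KO. Background, the mean level upstream of untested genes, would give such a region 8.04 and 7.52 reads in WT and 8.98 and 10.1 in KO, so the WT counts were at background and the KO counts above it. The log2 fold change was 2.68 ± 0.57 (edgeR adjusted p = 0.0172), where 8.56% of the 18281 regions tested on that strand were higher, 0.0875% lower and 8.65% either, and the median of all was 0.99. The call was lost when the upstream table was scaled on itself, and without KO replicate 2. The gene Fanci itself fell.

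The opposite-strand region of Fancg had 8 and 5 reads in WT and 11 and 20 in KO (1.99 ± 0.62, edgeR adjusted p = 0.0564), that of Fancc had 8 and 9 and then 11 and 15 (1.38 ± 0.58, adjusted p = 0.106), and that of Fancl 25 and 20 and then 18 and 25 (0.70 ± 0.44, adjusted p = 0.236). Background for these opposite-strand regions was again 8.04 and 7.52 reads in WT and 8.98 and 10.1 in KO. The WT counts of Fancg and Fancc were near it, as were their 11 reads in KO replicate 1. The median over all regions tested on that strand was 0.99. On the strand of the gene only the Fancg region (chromosome 4, 43010507 to 43013506) held enough reads to be tested. It had 71 and 91 reads in WT and 35 and 31 in KO, well above background in all 4 libraries, and its log2 fold change of -0.49 ± 0.29 did not pass (edgeR adjusted p = 0.247, unadjusted p = 0.109). Over all 18087 regions tested on this strand 0.0166% passed, and the median log2 fold change was 0.90.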

How the data were processed

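The values are raw read counts, deposited by the authors as made with featureCounts 1.6.4 per the file headers: genes by exon on their own strand with GENCODE M18, and 3000-base upstream regions on either strand. The recorded commands do not keep multi-mapping reads or reads that overlap several features. Cutadapt, HISAT2 and GRCm38.p5 are named in the submitters' processing notes, with versions of the first pair not given in the sources used here. Symbols were matched for 99.72% of 54232 genes. Promoters are from RefSeq (GRCm38.p6). The labels name the molecule as polyA RNA, while the protocol describes random and poly(T) priming with transcript depletion. How far RNA without a poly(A) tail was captured, which matters for the upstream regions, cannot be told from them.

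Groups came from the sample titles. The test was edgeR 4.0.16 under R 4.3.3 (filterByExpr, TMM, robust quasi-likelihood fit, genotype only, Benjamini-Hochberg over all tested genes, threshold 0.05). The SE is the log2 fold change divided by the square root of F. TMM factors were 0.955 and 0.943 in WT and 1.03 and 1.07 in KO. Upstream tables used the gene table's library scale. Background per kilobase was the mean, trimmed by 0.25 at each end, over upstream regions of 13469 untested autosomal genes (1270 for X). Replicates differed beyond sampling noise (chi-square per degree of freedom 5.04 in WT, 5.98 in KO). The script was tested on simulated counts. Every Fanconi gene was named, with Dis3, genes overlapping a member or starting within 1000 bases of its start (those with enough reads, as far as the text uses them), and up to 4 genes per pathway list by adjusted p, of which 1 is not reported here. The gene lists and the members were chosen with earlier results of these data known. The alternatives tried were 2 other filters on low counts, DESeq2 1.42.0, scaling by median of ratios, a replicate block, Sertoli scaling, background subtraction and each library left out.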

Additional observations from a re-analysis of the deposited data

How the results depend on the processing

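The calls of Fanca, Fancd2, Fancg, Fanci and Fancl held under all 11 alternatives, with Fanca between -1.10 and -0.84 and Fancl between -0.56 and -0.34 (highest edgeR adjusted p 0.0223). Scaling to Sertoli cell genes gave 8 lower Fanconi genes, adding Fancb (adjusted p = 0.0417), Fance (0.0347) and Fancm (0.00212). Fancc turned to -0.035 with no filter, -0.12 with Sertoli scaling, -0.049 with background subtracted and -0.031 without KO replicate 2 (-0.031 to 0.025 with a library left out). Fancf turned to 0.030 with a filter of 1 CPM and 0.020 without WT replicate 1 (-0.15 to 0.020 with a library left out). None of these passed. The count of all higher genes, 2906, was 1081 with DESeq2, 1937 with no filter, 1632 with Sertoli scaling, 1195 with background subtracted, and from 1324 to 2429 with a library left out. Relative to early meiotic genes, 1 to 2 Fanconi genes were lower and 2 to 3 higher with a library left out, and with background subtracted 2 were lower and 1 higher. Against pachytene genes 0 were lower and 7 higher, where 0.311% and 82.3% of all tested genes were. Upstream on the opposite strand, the 1 call became 0 with the table scaled on itself, 2 with no filter, and 0 to 2 with a library left out. The cause of these differences was not tested.

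WT and KO libraries share replicate numbers, but nothing says that a number marks a shared litter or day. Deviations of same-numbered libraries correlated at 0.106 over 13116 genes. A replicate block gave 6 lower Fanconi genes, adding Fancm (adjusted p = 0.0443), and 2 opposite-strand upstream calls. Depth limits Fancb, with 18 to 72 reads per library, and the upstream regions.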
